A study of Rubus idaeus with 6 samples.

Results

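The expression of 5 MADS-box gene models was examined in axillary buds of an annual-fruiting (AF) and a biennial-fruiting (BF) raspberry. They were chosen by their Arabidopsis orthologues, and all 5 were found among the 19951 gene models of the deposited table. Ro04_G36356 and Ro04_G36209 are orthologous to AGAMOUS-LIKE 24 (AGL24), Ro04_G07112 and Ro04_G02528 to SEPALLATA3 (SEP3) and Ro03_G05331 to AGAMOUS (AG). They lie on linkage groups (LG) 3 and 4, on which the study mapped the loci RiAF3 and RiAF4 for the AF trait. The study lists Ro04_G36356 in the RiAF4 region, at a position past the end of the LG4 window in which it mapped RiAF4. By the study's positions, the finer interval given for RiAF4 holds Ro04_G02528 and none of the other LG4 MADS-box gene models. The gene models next to Ro04_G02528 that are named below also lie in that interval. RNA came from field-grown Rubus idaeus, with ‘Heritage’ (AF) libraries 62, 63 and 64 and ‘Wakefield’ (BF) libraries 59, 60 and 61. Buds were taken 5 to 10 nodes below the shoot apex on November 5, in the southern spring to early summer. Each fruiting habit was represented by a single cultivar at a single time, so that habit and cultivar cannot be told apart. The replicates are called biological, with no statement of how many plants each held. The p-values set a cultivar difference against the spread between these libraries only.

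MADS-box proteins are plant transcription factors that bind DNA as dimers and act in larger complexes. In Arabidopsis, AGL24 promotes the change from vegetative growth to flowering together with SOC1. SEP3 joins floral organ identity proteins into complexes in the young flower, and AG specifies stamens and carpels and ends the growth of the floral meristem.

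Normalized counts, that is reads per gene model over a library size factor, were not corrected for gene length. Levels were therefore compared between libraries and not between gene models. The recovered reads came to between 7345603 and 14977596 per library, with the fewest in ‘Wakefield’ library 60. The axillary bud genes DRM1 and BRC2 were read in every library. Leaf photosynthesis genes summed to 10972 to 15613 normalized counts in ‘Wakefield’ and 7802 to 8507 in ‘Heritage’, with none of the 6 at 0. By limma 4 of these 6 were lower in ‘Heritage’ at an adjusted p under 0.05, as were 17.5% of all gene models tested, and all 6 had an unadjusted p under 0.05. The count was 6 in edgeR and DESeq2, and in limma 2 without ‘Heritage’ library 62 or 63. In bulk buds, fewer cells of a type and less RNA per cell cannot be told apart, and the part of tissue make-up in the results was not tested.

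Of the 5 gene models, only AGL24 Ro04_G36356 passed the limma test between the cultivars, and it was higher in ‘Heritage’ (AF). The study had picked Ro04_G36356 as a candidate from these same libraries, so that its call is no separate evidence. The test used log2(normalized count + 1) over the 17898 gene models that reached 10 in 3 or more libraries, at an adjusted p under 0.05. It called 33.5% of all gene models tested, 16.0% as higher and 17.5% as lower in ‘Heritage’. A share of 1 in 5 is close to this background and is no result about the group. By limma 0 of the 5 were lower, also at an unadjusted p under 0.05. On the recovered reads edgeR, which called 37.4% of all gene models tested, called AGL24 Ro04_G36356 higher and none of the 5 lower, with 2 lower at an unadjusted p under 0.05. DESeq2, which called 38.2%, called AGL24 Ro04_G36356 higher and SEP3 Ro04_G07112 and AG lower.

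**Figure D1:**
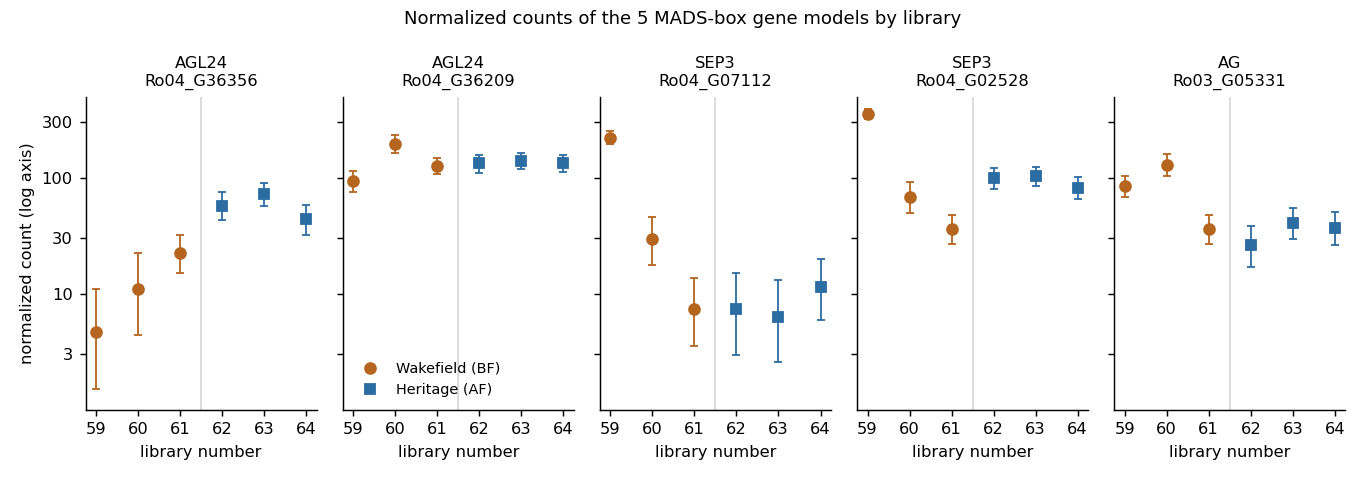
Normalized count (log axis) of each of the 5 MADS-box gene models in every library, with ‘Wakefield’ (BF) libraries 59 to 61 as circles and ‘Heritage’ (AF) libraries 62 to 64 as squares; bars are exact 95% Poisson intervals of the reads and cover counting error only. AGL24 Ro04_G36356 is between 43.8 and 72.7 in ‘Heritage’ and at most 22.3 in ‘Wakefield’, and both SEP3 gene models are highest in ‘Wakefield’ library 59.

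AGL24 Ro04_G36356, on LG4, had few reads in ‘Wakefield’. Its normalized counts were 57.5, 72.7 and 43.8 in ‘Heritage’ libraries 62, 63 and 64. They were 4.70, 10.9 and 22.3 in ‘Wakefield’ libraries 59, 60 and 61. Every ‘Heritage’ library was above every ‘Wakefield’ library, a separation found in this direction for 27.0% of all gene models tested and in either direction for 53.2%. The ‘Heritage’ mean was 58.0 ± 14.4 and the ‘Wakefield’ mean 12.6 ± 8.92 (SD, n = 3 each), which is a 4.60-fold ratio. The log2 fold change, ‘Heritage’ over ‘Wakefield’, was 2.31 with an SE of 0.52 and a 95% interval of 1.05 to 3.58 (limma, adjusted p = 0.0203). An adjusted p under 0.01 with a log2 fold change beyond 1 in either direction, a cut-off that the study applied in DESeq2, was met in limma by 9.62% of all gene models tested and not by this one. On the recovered reads AGL24 Ro04_G36356 met it in DESeq2 (log2 fold change 2.16, adjusted p = 6.93e-04) and not in edgeR (2.13, adjusted p = 0.0148). With 1 library left out the log2 fold change stayed between 1.80 and 2.81. The limma call was lost without ‘Wakefield’ library 60 (adjusted p = 0.0544), ‘Heritage’ library 62 (adjusted p = 0.0668) and ‘Heritage’ library 63 (adjusted p = 0.0719).

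AGL24 Ro04_G36356 rested on 5 reads in library 59 and 7 reads in library 60, against 30 in library 61 and 46 to 80 in ‘Heritage’. The exact 95% Poisson interval was 1.52 to 10.96 normalized counts in library 59 and 15.0 to 31.8 in library 61. These intervals do not overlap, so that these ‘Wakefield’ libraries differed by more than counting error. The lowest ‘Heritage’ interval, 32.1 to 58.4 in library 64, lay above all of the ‘Wakefield’ ones. The intervals take each read as an independent molecule, and PCR copies would widen them.

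The other AGL24 gene model, Ro04_G36209 at 4812531 bp of LG4, had nearly equal means in the cultivars. Its normalized counts were 133, 139 and 133 in ‘Heritage’ libraries 62, 63 and 64, and 93.0, 194 and 126 in ‘Wakefield’ libraries 59, 60 and 61. The ‘Heritage’ values fell within the ‘Wakefield’ range. The ‘Heritage’ mean was 135 ± 3.41 and the ‘Wakefield’ mean 138 ± 51.7 (SD, n = 3 each). The log2 fold change was 0.04 with an SE of 0.27 (limma, adjusted p = 0.927), and its 95% interval of -0.61 to 0.69 still holds differences in either direction. Its sign turned under edgeR, DESeq2 and upper quartile scaling and without ‘Wakefield’ library 59. Within ‘Wakefield’ it was highest in library 60, at 2.09 times library 59, whereas Ro04_G36356 was highest in library 61.

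The paralogues were also compared through their ratio within a library, which depth and gene length leave comparable between cultivars. Ro04_G36356 had 43.3%, 52.3% and 32.9% of the normalized count of Ro04_G36209 in ‘Heritage’ libraries 62, 63 and 64. In ‘Wakefield’ libraries 59, 60 and 61 it had 5.05%, 5.60% and 17.6%, so that the groups did not overlap. Single gene models did not overlap between the groups in 53.2% of those tested, and the share for ratios of other pairs was not computed. The log2 ratio, with 1 added to both values, was -1.23 ± 0.33 in the former cultivar and -3.51 ± 0.92 in the latter (SD, n = 3 each). The difference of 2.28 gave p = 0.10 in a two-sided exact permutation test, the smallest p that 3 libraries against 3 allow, and 0.10 when adjusted over the 2 pairs compared. This test cannot reach 0.05 with so few libraries. The rule for reads shared by related gene models was not stated, and the reads of red raspberry were aligned to black raspberry gene models. The part of either in the ratios was not tested.

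**Figure D2:**
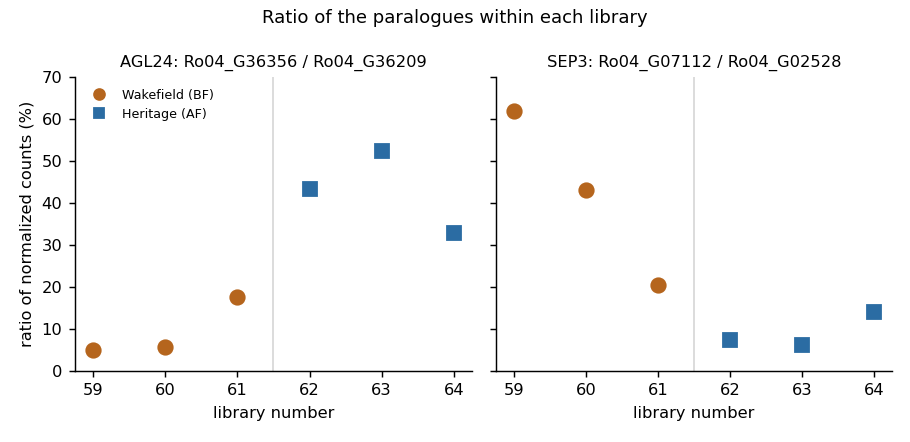
Normalized count of 1 paralogue as a percentage of the other within each library, for the AGL24 pair (left) and the SEP3 pair (right), with ‘Wakefield’ (BF) libraries 59 to 61 as circles and ‘Heritage’ (AF) libraries 62 to 64 as squares. The AGL24 ratio is 32.9% to 52.3% in ‘Heritage’ and 5.05% to 17.6% in ‘Wakefield’, and the SEP3 ratio is 6.19% to 14.0% in ‘Heritage’ and 20.4% to 62.01% in ‘Wakefield’.

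SEP3 Ro04_G07112, at 6757201 bp of LG4, was read at a high level in a single library. Its normalized counts were 221, 29.5 and 7.43 in ‘Wakefield’ libraries 59, 60 and 61. They were 7.32, 6.36 and 11.4 in ‘Heritage’ libraries 62, 63 and 64. Library 61 lay within the ‘Heritage’ range, and libraries 59 and 60 lay above it. The ‘Heritage’ mean was 8.37 ± 2.69 and the ‘Wakefield’ mean 85.9 ± 117 (SD, n = 3 each), with an SD above the mean in ‘Wakefield’. The log2 fold change was -2.08 with an SE of 1.14 and a 95% interval of -4.87 to 0.72 (limma, adjusted p = 0.205). This gene model met the filter through exactly 3 libraries, 59, 60 and 64.

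The value for SEP3 Ro04_G07112 depended on the tool and on library 59. On the recovered reads both DESeq2 and edgeR gave a log2 fold change of -3.36, with an adjusted p of 0.00188 in DESeq2 and of 0.0595 in edgeR. Without ‘Wakefield’ library 59 it was -0.81 (limma, adjusted p = 0.332), and without ‘Wakefield’ library 61 it was -3.17 (limma, adjusted p = 0.0505). The reads were 235 in library 59, 19 in library 60 and 10 in library 61. Their exact 95% Poisson intervals were 193 to 251, 17.8 to 46.1 and 3.56 to 13.7 normalized counts, and none overlapped another. The ‘Wakefield’ spread was therefore larger than counting error, whereas the ‘Heritage’ intervals all overlapped each other.

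SEP3 Ro04_G02528, at 3743388 bp of LG4, was also highest in library 59. Its normalized counts were 356, 68.4 and 36.4 in ‘Wakefield’ libraries 59, 60 and 61, and 99.4, 103 and 81.9 in ‘Heritage’ libraries 62, 63 and 64. The ‘Heritage’ values stood between library 59 and the other two ‘Wakefield’ libraries. The ‘Heritage’ mean was 94.7 ± 11.2 and the ‘Wakefield’ mean 154 ± 176 (SD, n = 3 each). The log2 fold change was -0.03 with an SE of 0.80 (limma, adjusted p = 0.979), and the wide 95% interval of -2.003 to 1.93 still holds differences in either direction. Without ‘Wakefield’ library 59 it turned to 0.90 (limma, adjusted p = 0.0712).

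Both SEP3 paralogues were highest in library 59 and lowest in library 61, by unequal factors. Library 59 was at 29.7 times library 61 for Ro04_G07112 and at 9.78 times library 61 for Ro04_G02528. Ro04_G07112 had 62.01%, 43.2% and 20.4% of the normalized count of Ro04_G02528 in ‘Wakefield’ libraries 59, 60 and 61. In ‘Heritage’ libraries 62, 63 and 64 it had 7.37%, 6.19% and 14.0%. The SEP3 ratio was lower in each ‘Heritage’ library than in each ‘Wakefield’ library, and neither SEP3 gene model on its own separated the cultivars. Of all single gene models tested 53.2% did so, and the share for ratios of other pairs was not computed. The log2 ratio was -3.38 ± 0.57 for ‘Heritage’ and -1.34 ± 0.74 for ‘Wakefield’ (SD, n = 3 each). The difference of -2.04 gave p = 0.10 in a two-sided exact permutation test, again the smallest possible, and 0.10 when adjusted over the 2 pairs.

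AG Ro03_G05331, at 39675157 bp of LG3, was higher in ‘Wakefield’ libraries 59 and 60 than in the other four. Its normalized counts were 84.5, 129 and 36.4 in ‘Wakefield’ libraries 59, 60 and 61. They were 26.2, 40.9 and 37.1 in ‘Heritage’ libraries 62, 63 and 64. Library 61 fell within the ‘Heritage’ range. The ‘Heritage’ mean was 34.7 ± 7.65 and the ‘Wakefield’ mean 83.3 ± 46.4 (SD, n = 3 each). The log2 fold change was -1.09 with an SE of 0.47 and a 95% interval of -2.23 to 0.06 (limma, adjusted p = 0.122). On the recovered reads it was -1.25 in DESeq2 (adjusted p = 0.0299) and -1.23 in edgeR (adjusted p = 0.0703). Without ‘Wakefield’ library 61 it was -1.59 and passed (limma, adjusted p = 0.0167). The exact 95% Poisson interval of library 61, 26.9 to 48.1, lay below those of library 59, 68.0 to 104, and of library 60, 103 to 160.

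**Figure D3:**
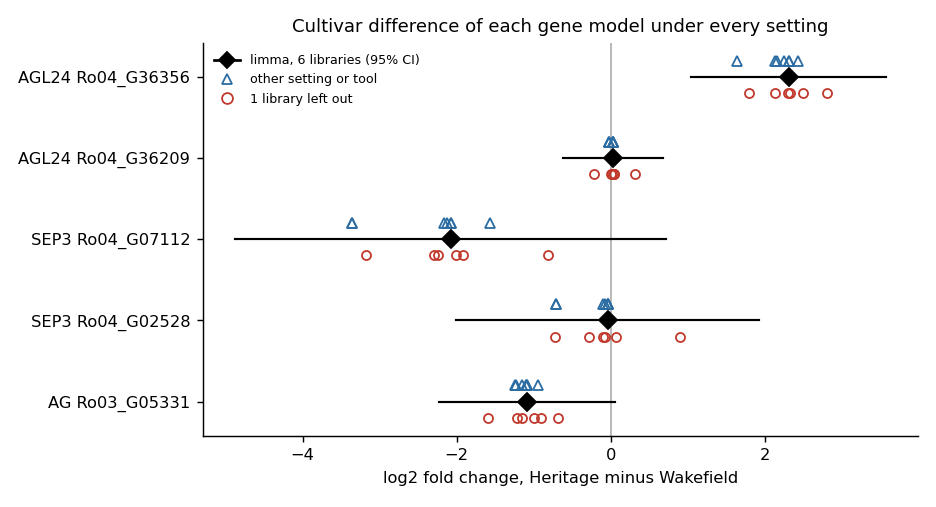
Log2 fold change (‘Heritage’ over ‘Wakefield’) of each gene model; diamonds with lines are the limma values and 95% intervals from 6 libraries, triangles the other settings and tools, and open circles the fits with 1 library left out. AGL24 Ro04_G36356 stays above 0 throughout, with 1.80 to 2.81 when a library is left out, and SEP3 Ro04_G07112 moves to -0.81 without ‘Wakefield’ library 59.

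The spread among ‘Wakefield’ libraries was larger than that among ‘Heritage’ libraries for each of the 5. The SD of log2(normalized count + 1) in ‘Wakefield’ was 2.38 for SEP3 Ro04_G07112 and 1.68 for SEP3 Ro04_G02528. It was 1.02 for AGL24 Ro04_G36356, 0.92 for AG and 0.53 for AGL24 Ro04_G36209. In ‘Heritage’ it was between 0.04 and 0.40 for the same gene models. Over all gene models tested the median SD was also larger in ‘Wakefield’, at 0.20 against 0.15 in ‘Heritage’. The share of all gene models with the larger SD in ‘Wakefield’ was not computed. A larger spread there for each of the 5 is therefore no result about the group. In ‘Wakefield’, 77 gene models had a larger SD than Ro04_G07112 and 225 a larger one than Ro04_G02528, which puts them at percentiles of 99.6 and 98.7. AGL24 Ro04_G36356 stood at a percentile of 95.5, AG at 94.4 and AGL24 Ro04_G36209 at 84.9. In ‘Heritage’ the percentiles ran from 6.08 for AGL24 Ro04_G36209 to 88.0 for SEP3 Ro04_G07112. Few reads alone widen an SD, and with 3 libraries a cultivar the spread was not tested.

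**Figure D4:**
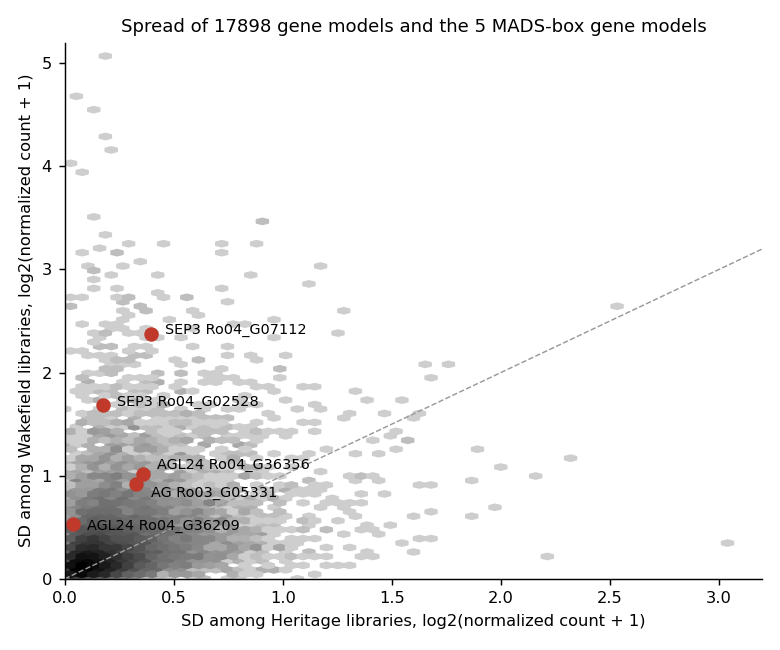
SD of log2(normalized count + 1) among the 3 ‘Wakefield’ (BF) libraries against that among the 3 ‘Heritage’ (AF) libraries; grey hexagons are the 17898 gene models tested (darker for more gene models, on a log scale), red points the 5 MADS-box gene models and the dashed line equal spread. All 5 lie above the line, with SEP3 Ro04_G07112 at 2.38 against 0.40 and SEP3 Ro04_G02528 at 1.68 against 0.17. The median over all gene models tested is 0.20 in ‘Wakefield’ against 0.15 in ‘Heritage’.

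The 5 gene models did not share one order across the ‘Wakefield’ libraries. Both SEP3 gene models were highest in library 59 and lowest in library 61, as were 17.9% of all gene models tested with library 60 between. AGL24 Ro04_G36356 had the opposite order, found in 17.6%, with its lowest value in the library where SEP3 was highest. AG and AGL24 Ro04_G36209 were both highest in library 60. A value (plus 1) at least 4 times that of both other ‘Wakefield’ libraries, a threshold set after the values were seen, was found in library 59 for both SEP3 gene models and for 161 of all gene models tested (0.9%). The corresponding share was 0.0279% for library 60 and 0.514% for library 61. It was 0.067% for ‘Heritage’ library 62 and 0.0112% for each of libraries 63 and 64, so that library 59 had the highest share of the 6.

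Other genes of flower formation gave values beside these. UNUSUAL FLORAL ORGANS (UFO, Ro03_G05828), a cofactor of LEAFY in Arabidopsis, had 29.1, 4.67 and 8.17 normalized counts in ‘Wakefield’ libraries 59, 60 and 61 and 5.23 to 8.18 in ‘Heritage’. It was highest in library 59, as SEP3 was, but it did not meet the filter and was not tested. DAF (Ro03_G05838), which acts in anther opening in Arabidopsis, had 34.8, 34.2 and 10.4 in ‘Wakefield’ and 5.23, 10.9 and 16.2 in ‘Heritage’ (limma, adjusted p = 0.166). Like AG, DAF was higher in libraries 59 and 60 than in the rest. The shares of all gene models highest in library 59, or higher in libraries 59 and 60, were not computed. Nothing is therefore read from these likenesses to SEP3 and AG. The listed anther and pollen genes, DAF and DUO3, summed to 386 to 426 normalized counts in ‘Wakefield’ and 345 to 365 in ‘Heritage’, with neither at 0 in any library. Their part in the SEP3 and AG values was not tested.

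Of 21 listed genes of flowering and floral development, 19 met the filter, and limma called 4 higher in ‘Heritage’ (RAV2, CDF1, JMJ14 and PFT1). It called 0 lower, with 2 lower at an unadjusted p under 0.05, and edgeR and DESeq2 each called 5 higher and 2 lower. Over all gene models tested, limma called 16.0% higher and 17.5% lower. In either direction edgeR called 37.4% of them and DESeq2 38.2%. With so few genes, nothing is read from these counts about the list. The median log2 fold change of the 19 was 0.03, against 0.01 over all gene models tested. All 4 were listed as flowering time genes, and the study had picked JMJ14 and PFT1 as candidates from these libraries, so that they are no separate evidence of a direction. RAV2 (Ro04_G02635), whose Arabidopsis orthologue represses FT, had 323, 271 and 357 in ‘Wakefield’ and 1110, 872 and 780 in ‘Heritage’ (log2 fold change 1.53, limma, adjusted p = 0.00292). The count of 4 higher was 2 without ‘Heritage’ library 63.

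Among the other listed MADS-box gene model and the listed floral organ regulators that were tested, limma called none with all 6 libraries. The other MADS-box gene model listed, AGL30 (Ro04_G00052), had 219, 172 and 150 in ‘Heritage’ and 150, 149 and 125 in ‘Wakefield’ (log2 fold change 0.33, limma, adjusted p = 0.181). HUA1 and HUA2, which act in the processing of AG transcripts in Arabidopsis, had adjusted p-values of 0.992 and 0.107 in limma. For HUA1 (Ro03_G05776) the mean was 691 in both cultivars, and for HUA2 (Ro04_G12498) the ‘Heritage’ mean was 1006 ± 46.2 and the ‘Wakefield’ mean 850 ± 49.4 (SD, n = 3 each). JAG and BPE, which act in the growth of floral organs, had log2 fold changes of -0.26 and -0.01 (limma, adjusted p = 0.379 and 0.963). Of these 4 genes, 1 had an unadjusted p under 0.05 in limma, and edgeR and DESeq2 called 0. Without ‘Heritage’ library 62, limma called 1 of the 4 lower.

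The SPL factors, which promote the vegetative phase change and flowering, and a pair of meristem genes were also followed. Limma called 0 of the 4 SPL genes, with 1 at an unadjusted p under 0.05, and edgeR and DESeq2 each called 1 lower, SPL3. SPL3 (Ro03_G33114) had 648, 1073 and 1521 in ‘Wakefield’ libraries 59, 60 and 61 and 454 to 587 in ‘Heritage’ (log2 fold change -0.95, limma, adjusted p = 0.0659). SPL3 was lowest in library 59 within ‘Wakefield’, as AGL24 Ro04_G36356 was. The shoot meristem gene STM (Ro03_G13515) had 1981 in library 59, 2711 and 2733 in libraries 60 and 61 and 2332 to 2436 in ‘Heritage’ (limma, adjusted p = 0.890). The epidermal gene ATML1 (Ro03_G10561) had 965 in library 59, 574 and 606 in libraries 60 and 61 and 350 to 470 in ‘Heritage’ (log2 fold change -0.76, limma, adjusted p = 0.0527). It was highest in library 59, as SEP3 was, and edgeR and DESeq2 called it lower in ‘Heritage’. The share of all gene models highest in library 59 was not computed, so that nothing is read from this likeness.

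**Figure D5:**
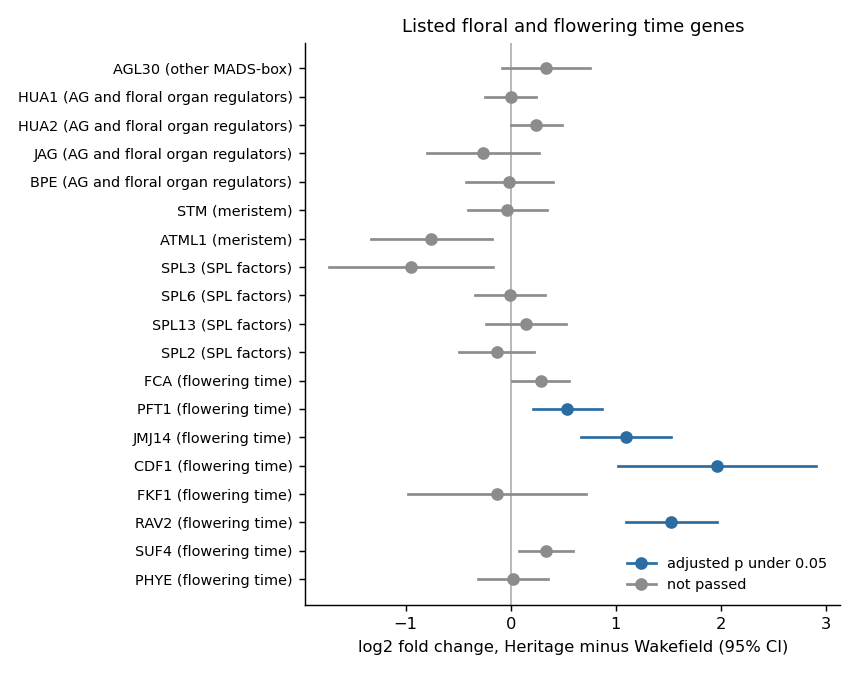
Log2 fold change (‘Heritage’ over ‘Wakefield’) with its 95% interval from limma for the 19 listed floral and flowering time genes that met the filter; blue marks an adjusted p under 0.05 and grey the others. PFT1, JMJ14, CDF1 and RAV2 are higher in ‘Heritage’, and the genes listed as AG and floral organ regulators lie between -0.26 and 0.24.

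Gene models next to the MADS-box ones were also compared between the cultivars. Of 16 gene models listed next to Ro04_G36209, Ro04_G07112, Ro04_G02528 and AG, 13 met the filter, and limma called 3 higher and 3 lower in ‘Heritage’, beside 16.0% and 17.5% of all gene models tested. The 3 lower were 4 in edgeR and DESeq2, and 1 in limma without any one of the ‘Heritage’ libraries. With so few neighbours, nothing is read from these counts about a stretch. AGL24 Ro04_G36209, which did not pass, had called neighbours of either direction. A thioesterase gene model 5433 bp away (Ro04_G02699) had 70.1 to 80.9 in ‘Heritage’ and 126 to 138 in ‘Wakefield’ (log2 fold change -0.77, limma, adjusted p = 0.00464). MYB62 (Ro04_G02702), 27837 bp away, had 422 to 993 in ‘Heritage’ and 178 to 240 in ‘Wakefield’ (log2 fold change 1.56, limma, adjusted p = 0.0195).

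The listed neighbours of the SEP3 gene models had no step in library 59 as large as that of SEP3, and their orders differed. SPL13 (Ro04_G07111), 15628 bp from SEP3 Ro04_G07112, had 751, 771 and 953 in libraries 59, 60 and 61. SPL6 (Ro04_G02526), 17575 bp from SEP3 Ro04_G02528, had 399, 431 and 500 in the same libraries. Both were lowest in library 59, where the SEP3 gene models were highest. Ro04_G02532, 22648 bp from SEP3 Ro04_G02528, was also lowest there (43.2, 94.9 and 75.7). Other neighbours were highest in library 59, as SEP3 was. Ro04_G07113, 4840 bp from SEP3 Ro04_G07112, had 197, 190 and 125 in libraries 59, 60 and 61. Ro04_G07114, 5810 bp away, had 16.0, 4.67 and 5.198, and Ro04_G07109, 27793 bp away, had 16.0, 4.67 and 14.9. Neither Ro04_G07114 nor Ro04_G07109 met the filter. A ribosomal protein S15A gene model (Ro04_G02530), 12735 bp from SEP3 Ro04_G02528, had 42.3, 26.4 and 29.0 in libraries 59, 60 and 61 and 98.4 to 116 in ‘Heritage’ (log2 fold change 1.72, limma, adjusted p = 0.00272). Next to AG, a gene model 6004 bp away (Ro03_G33082) had 5174, 2742 and 2577 in libraries 59, 60 and 61 and 1791 to 2012 in ‘Heritage’ (limma, adjusted p = 0.0724).

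Gene models with the most similar pattern over the 6 libraries were looked up by Pearson's r of log2(normalized count + 1). The search covered the 1279 described and tested gene models from the part of the mapped intervals held here. The r is a description without a test, since many gene models are compared over 6 points that share libraries and cultivar. For AGL24 Ro04_G36356 the closest was the cullin gene CUL4 (Ro03_G17435, r = 0.99), with 1855 to 1908 in ‘Heritage’ and 1637 to 1787 in ‘Wakefield’, a far smaller relative difference. For AGL24 Ro04_G36209 it was RMA3 (Ro03_G06505, r = 0.96), with 384, 706 and 492 in libraries 59, 60 and 61 and 574 to 586 in ‘Heritage’. RMA3 was thus also even in ‘Heritage’ and highest in library 60.

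For SEP3 Ro04_G07112 the closest was the phosphate transporter gene PHT2;1 (Ro04_G19463, r = 0.98), with 466, 341 and 296 in libraries 59, 60 and 61 and 260 to 307 in ‘Heritage’. For SEP3 Ro04_G02528 it was a Rossmann-fold gene model (Ro04_G36214, r = 0.96), with 74.2, 14.0 and 5.198 in libraries 59, 60 and 61 and 15.4 to 23.0 in ‘Heritage’. Ro04_G36214 was the one of these closest gene models with a step in library 59 of the size seen for SEP3. For AG it was an oxidoreductase gene model (Ro04_G00096, r = 0.97), with 118, 123 and 82.4 in libraries 59, 60 and 61 and 81.6 to 87.2 in ‘Heritage’.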

How the data were processed

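Libraries were grouped by the cultivar in the labels. Per the study's methods, reads were cleaned (Trimmomatic, SortMeRNA), mapped by STAR onto black raspberry (R. occidentalis) gene models, assembly ORUS 4115-3 v3.0, and compared in DESeq2. Versions, the read counter and its use of strand were not stated. The deposited signal values are read counts that the authors scaled by one size factor a library. Dividing by the value of a single read gave whole numbers (within 0.001 of a read) for 100% of values, and these reads were used. The authors' own fold changes, standard errors and p-values were left unused.

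Cultivars were compared by limma 3.58.1 (R 4.3.3) after adding 1 and taking log2, keeping gene models that reached 10 in 3 libraries or more, with Benjamini-Hochberg adjustment over all 17898. Paralogue ratios were compared by exact permutation (scipy 1.17.1, Python 3.11.15). Alternatives were pseudocounts of 0.1 and 10, no filter, a minimum of 50, upper quartile scaling, a mean-variance trend, edgeR 4.0.16 and DESeq2 1.42.0 on recovered reads, and each library left out. The fits were tested on simulated counts, with changes set only in gene models with a mean of 50 or more and the same dispersion for all. That simulation does not cover changes in gene models as low as AGL24 Ro04_G36356, or a spread as wide as that of SEP3 in ‘Wakefield’. Orthologues and positions come from the study's gene tables. The 1998 gene models used here are fewer than the study counts in the mapped intervals, so that closer gene models or neighbours may be missing.

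The gene models, lists and alternatives were chosen with earlier results of these data known, and the alternatives for the floral list were added after seeing the data. Named genes are the 5 MADS-box gene models, listed floral and marker genes, the 2 gene models listed on either side of a MADS-box one, and the closest by Pearson's r (the 3 closest were computed).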

Additional observations from a re-analysis of the deposited data

How the results depend on the processing

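The number of gene models called between the cultivars (5994) ran from 3083 (without ‘Heritage’ library 63) to 5771 with 1 library left out, and was 3524 without ‘Heritage’ library 62. AGL24 Ro04_G36356 kept its direction in every setting in which it was tested, with log2 fold changes of 1.80 to 2.81 with a library left out, and lost its call without ‘Wakefield’ library 60, ‘Heritage’ library 62 or ‘Heritage’ library 63. AGL24 Ro04_G36209 changed sign with edgeR (-0.016), DESeq2 (-0.018) and upper quartile scaling (-0.023), and ranged from -0.21 (without ‘Wakefield’ library 59) to 0.31. Among the settings with all 6 libraries, SEP3 Ro04_G07112 (-3.36) and AG (-1.25) passed in DESeq2 alone. With a library left out they ranged from -3.17 to -0.81 and from -1.59 to -0.69, and AG passed without ‘Wakefield’ library 61. SEP3 Ro04_G02528 ranged from -0.73 to 0.90, turning positive without ‘Wakefield’ library 59 (0.90) and ‘Heritage’ library 64 (0.07). The difference in log2 ratio, ‘Heritage’ minus ‘Wakefield’, ranged from 2.01 to 2.81 for the AGL24 pair with a library left out. For the SEP3 pair it ranged from -2.45 to -1.72. The smallest possible exact p with a library left out is 0.20. The floral list had 4 genes called, 7 with edgeR, DESeq2 or a mean-variance trend, and 2 to 5 with a library left out. The cause of these changes was not tested. With a minimum of 50, AGL24 Ro04_G36356, SEP3 Ro04_G07112 and AG were not tested. Upper quartile scaling moved the median of all gene models from 0.01 to -0.05. No paired analysis was possible because the cultivars share no library numbers.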
